A study of Bos taurus with 16 samples.

Results

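ARC, NR4A1, NR4A2, NR4A3, SIK1, IER3 and DUSP1 are genes whose transcripts are induced within a short time of a stimulus such as nerve activity, adrenergic signalling or stress. They were measured by RNA sequencing in the muscles of newborn Hanwoo calves, a Korean beef breed of Bos taurus. The members, 7 of the 34109 genes listed, were taken by symbol through their NCBI gene IDs, and all 7 had enough reads to be tested in every comparison. They were selected on their diet differences in these same libraries, so every diet value below is a description of the genes that were chosen and not a test of them.

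Hanwoo cows received 100% of their nutritional requirements (control) or 150% (treated) from mid to late pregnancy. Their male calves were sampled after birth, before any colostrum was taken. Per the paper, all calves were killed with intravenous pentobarbital and then bled, and muscle was taken after death. Round muscle of the hind leg and sirloin muscle of the back came from the same 8 calves, 4 for each diet, which gave 16 libraries in 4 groups. The calves themselves received no diet, and each library was made from whole muscle, so fewer cells of a type and less RNA per cell cannot be told apart. Calves are named here by diet and replicate number, and the round and sirloin libraries with the same diet and number came from 1 calf. The libraries held between 44473011 and 72446933 counted reads. Levels are given as CPM, read counts scaled to a common library size with TMM factors over all 16 libraries. Where genes are compared with each other they are given as TPM, which also divides by transcript length.

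Of these genes, the NR4A genes and SIK1 sit on a shared signalling route. Calcium and cyclic AMP signals activate the transcription factor CREB and its coactivators, the CRTC proteins, which switch on the NR4A genes and SIK1. The NR4A proteins are nuclear receptors that act without a known physiological ligand, and in skeletal muscle they are known for their induction by adrenergic signals and exercise and for the control of glucose and lipid metabolism. SIK1 is a kinase that phosphorylates the CRTC proteins and class IIa histone deacetylases and so feeds back on the signal, while DUSP1 is a nuclear phosphatase that switches off MAP kinases.

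Skeletal muscle markers summed to between 77986 and 170988 CPM in the libraries, as the labelled tissue would give. Some libraries stood apart in markers of other cells. The sirloin library of treated calf 4 held 2341 CPM of the 5 adipocyte markers together, against 0.880 to 5.20 CPM in the other sirloin libraries and 1.87 to 8.64 CPM in round muscle. The 5 fibroblast markers reached 3845 CPM in the round library and 1072 CPM in the sirloin library of control calf 2, and 1414 CPM in the sirloin library of treated calf 4, where the median of the groups lay between 415 and 759 CPM. The 8 leukocyte markers were highest in treated calf 2, at 60.2 CPM in round and 91.3 CPM in sirloin muscle. Neuronal markers were near the limit of detection: NEFL and NEFM had no read in both treated groups and in the round control group, and SNAP25 had none in either control group. The part of these cells in the results was not tested.

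The 7 genes differed in level by more than 2 orders of magnitude. Per transcript length, DUSP1 stood highest with 160 ± 68.3 TPM (mean ± SD over 16 libraries) and a range of 65.0 to 311 TPM. NR4A1 followed with 48.6 ± 32.0 TPM, then IER3, an early response gene linked to cell survival, with 26.0 ± 4.77 TPM, and SIK1 with 22.2 ± 13.4 TPM. NR4A3 had 16.3 ± 25.4 TPM, with a median of 7.47 TPM far below its mean. NR4A2 reached 1.69 ± 1.44 TPM and ARC 0.478 ± 0.790 TPM. Each neighbour in this order overlapped with the next in range, and the order by median was the same as that by mean. DUSP1 lay at the 98.2 percentile of all listed genes and ARC at the 61.1 percentile.

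**Figure D1:**
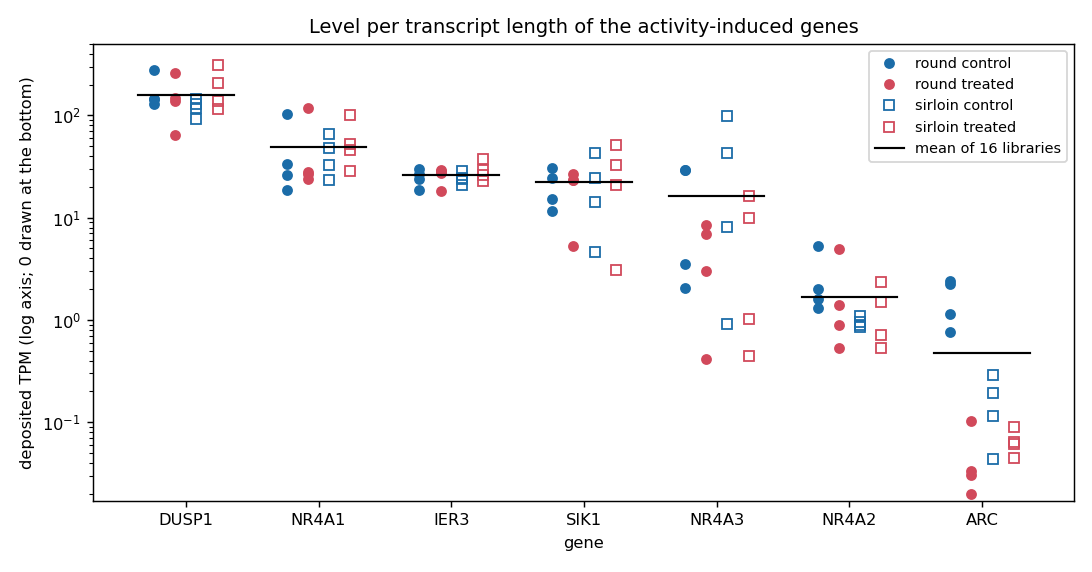
Deposited TPM on a log axis for the 7 genes, ordered by their mean over 16 libraries (black line); filled circles are round and open squares sirloin libraries, blue for control and red for treated calves, and a value of 0 is drawn at the bottom. DUSP1 averaged 160 TPM and ARC 0.478 TPM, and only the 4 round control libraries of ARC stand well above the rest of that gene.

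ARC (gene ID 519403), which encodes a capsid-forming protein best known for receptor traffic at synapses, was highest in the round muscle of the control calves. Its raw counts in the 4 round control libraries were 77, 96, 186 and 203 for calves 1 to 4, or 1.85, 1.24, 4.52 and 4.43 CPM. In the 4 round treated libraries the counts were 4, 8, 0 and 3, or 0.0637, 0.165, 0 and 0.0627 CPM, where a count of 0 in treated calf 3 allows up to 3 reads or 0.0434 CPM. Every control library lay above every treated library in this muscle, by a gap that ran from 0.165 to 1.24 CPM. In sirloin muscle the counts were 4, 13, 30 and 15 in the control calves and 6, 5, 5 and 10 in the treated calves. The sirloin groups overlapped, since control calf 1 at 0.0892 CPM lay below 3 of the 4 treated calves at 0.0744 to 0.147 CPM.

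The log2 difference of ARC between treated and control calves was -5.36 ± 0.844 (standard error, n = 4 against 4, edgeR) in round and -1.32 ± 0.69 in sirloin muscle. The difference between those diet differences, round minus sirloin, was -4.06 ± 1.04, in a fit with no term for the calf. Leaving out each calf in turn gave -6.14 to -4.95 in round, -1.60 to -0.87 in sirloin and -4.86 to -3.76 for the difference between the muscles. Without both control calf 2 and treated calf 4, the calves with raised fibroblast or adipocyte markers, the values were -5.63 in round and -1.65 in sirloin muscle. Counts were low outside the round control group, with 15 reads in all over the 4 round treated libraries and 4 to 30 reads in each sirloin library, so counting error was large in each of these values and in the differences that use them.

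Of the members, 0 of 7 passed an adjusted p of 0.05 by edgeR's quasi-likelihood test in round muscle, where 0.0185% of all 21677 genes tested passed, and 1 of 7, ARC, passed by DESeq2, where 0.212% of all genes did. In sirloin muscle 0 of 7 passed by edgeR, against 0.00918% of 21776 genes, and 0 of 7 by DESeq2, against 0.0597%. For the difference between the muscles 0 of 7 passed by edgeR, where 0% of 22877 genes did (637 genes had an unadjusted p under 0.05), and DESeq2 also called no gene (290 under 0.05). ARC was the 1 member of 7 whose diet groups did not overlap in round muscle, where 1.76% of all genes tested showed no overlap, and 0 of 7 did so in sirloin muscle, where 1.68% did. The choice of the genes rests on these same contrasts, and nothing is read from the counts.

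**Figure D2:**
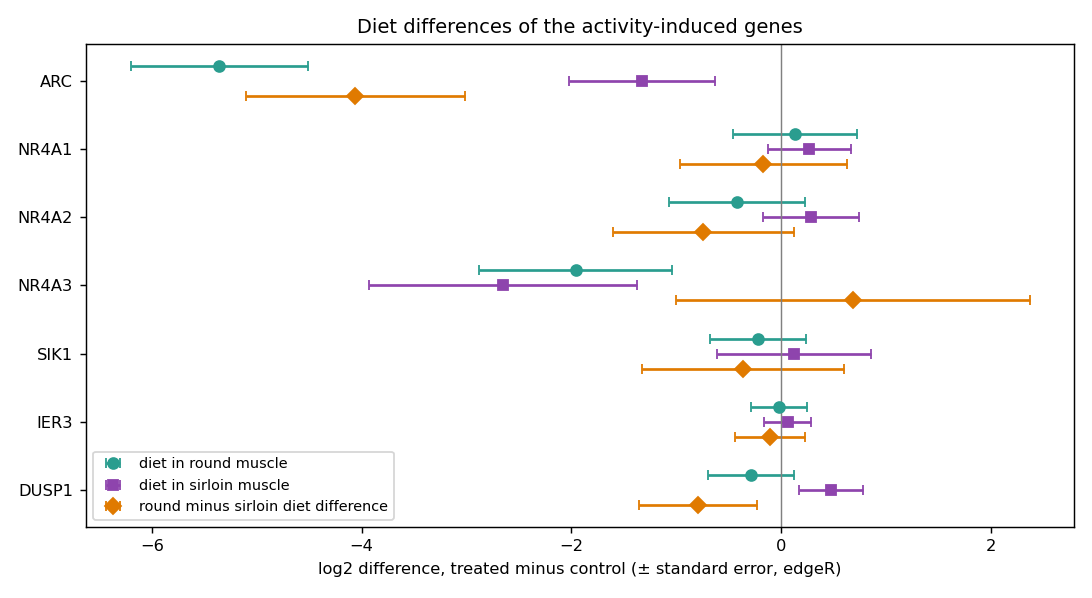
Log2 difference of each gene between treated and control calves in round muscle (green circles) and sirloin muscle (purple squares), and the round minus sirloin difference of the diet differences (orange diamonds), each with its standard error from edgeR. ARC lies at -5.36 in round and -1.32 in sirloin muscle, NR4A3 lies below 0 in both, and the other 5 genes lie between -0.42 and 0.48 in the muscles.

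NR4A1 (Nur77, gene ID 528390) was the most abundant of the NR4A receptors and differed more between calves than between diets. In round muscle it stood at 32.8, 147, 55.5 and 44.9 CPM in control calves 1 to 4 and at 41.7, 38.7, 36.9 and 186 CPM in treated calves 1 to 4. In sirloin muscle the values were 40.0, 98.9, 76.9 and 49.7 CPM in the control calves and 40.1, 61.9, 74.6 and 147 CPM in the treated calves. In both muscles treated calf 4 was the highest and control calf 2 the second of the 8 calves, and the diet groups overlapped. The log2 diet difference was 0.13 ± 0.59 in round and 0.27 ± 0.40 in sirloin muscle. Those 2 calves set its size: without treated calf 4 it was -0.84 in round and -0.17 in sirloin muscle, and without control calf 2 it was 0.77 and 0.53.

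The libraries with the 4 highest levels of NR4A1 were also the 4 with the highest fibroblast marker sums, 3845 CPM in round and 1072 CPM in sirloin muscle of control calf 2 and 1049 CPM in round and 1414 CPM in sirloin muscle of treated calf 4. COL1A1, COL3A1 and LUM were each highest in these 4 libraries, while DCN and PDGFRA were not. PDGFRA was highest in treated calf 2, at 56.4 CPM in round and 54.6 CPM in sirloin muscle, where the marker sums were 470 and 428 CPM. Adipocyte markers were high in the sirloin library of treated calf 4 and at 4.72 CPM in its round library. FOS, the immediate early AP-1 factor, was 379 CPM in the round and 436 CPM in the sirloin library of this calf, against at most 73.2 CPM in the other 14 libraries. In control calf 2, the second highest for NR4A1, FOS was 57.1 CPM in round muscle and 12.5 CPM in sirloin muscle, the lowest of the 8 sirloin libraries. The part of these genes and cells in the level of NR4A1 was not tested.

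NR4A2 (Nurr1, gene ID 540245) had the lowest level of the NR4A receptors. In round muscle its CPM were 4.16, 8.74, 3.23 and 2.66 in control calves 1 to 4 and 0.956, 2.26, 1.59 and 9.11 in treated calves 1 to 4. In sirloin muscle they were 1.74, 1.61, 1.53 and 1.85 in the control calves and 0.887, 2.26, 1.15 and 3.99 in the treated calves. Treated calf 4 was the highest in both muscles and treated calf 1 the lowest, while the 4 sirloin control calves lay within a 1.21-fold range. In round muscle 3 treated calves lay below all 4 control calves and treated calf 4 above all of them. The log2 diet difference was -0.42 ± 0.65 in round and 0.29 ± 0.46 in sirloin muscle. Without treated calf 4 the value was -1.55 in round muscle and -0.23 in sirloin muscle, and without control calf 2 the round value was 0.05. Leaving out each calf in turn gave up to 0.53 in sirloin muscle, without treated calf 1. In the RefSeq annotation of ARS-UCD2.0, NR4A2 overlaps GPD2, a mitochondrial enzyme gene at 129 CPM on average against 2.98 CPM for NR4A2. The sources used here do not state whether the counting used strand, so reads of the 2 genes may not be separable, and this was not tested. Their log2 CPM had a Pearson r of -0.19 over the 16 libraries, a description that cannot decide it.

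NR4A3 (NOR-1, gene ID 528877) was the most variable member. Its round muscle CPM were 7.80, 11.05, 108 and 113 in control calves 1 to 4 and 1.47, 25.9, 23.3 and 10.4 in treated calves 1 to 4. In sirloin muscle they were 161, 3.04, 28.3 and 331 in the control calves and 1.44, 48.5, 29.7 and 3.33 in the treated calves. Control calf 4 was the highest and treated calf 1 the lowest of the 8 calves in both muscles, and the groups overlapped in both. Within the sirloin control group the highest library was 109 times the lowest. The log2 diet difference was -1.96 ± 0.92 in round and -2.65 ± 1.28 in sirloin muscle, with ranges of -2.38 to -1.45 and -3.50 to -1.62 when each calf was left out. The difference between the muscles was 0.68 ± 1.69, smaller than its error, in a fit with no term for the calf.

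SIK1 (gene ID 100337254) varied in a pattern like that of NR4A3. Its CPM in round muscle were 46.7, 28.5, 70.9 and 93.6 in control calves 1 to 4 and 14.2, 63.6, 61.8 and 64.2 in treated calves 1 to 4. In sirloin muscle they were 73.1, 12.01, 39.7 and 114 in the control calves and 7.63, 120, 51.6 and 81.8 in the treated calves. Treated calf 1 was the lowest and control calf 2 the next in both muscles. The log2 diet difference was -0.22 ± 0.46 in round and 0.12 ± 0.74 in sirloin muscle, and both changed sign when single calves were left out (-0.49 to 0.09 and -0.36 to 0.64).

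IER3 (gene ID 505455) was the steadiest of the 7 genes. In round muscle it stood at 21.2, 15.5, 22.7 and 14.8 CPM in control calves 1 to 4 and at 20.7, 11.4, 19.2 and 20.5 CPM in treated calves 1 to 4. Its sirloin values ran from 15.4 to 22.2 CPM in the control calves and from 14.99 to 24.04 CPM in the treated calves. The groups overlapped almost entirely in both muscles. The log2 diet difference was -0.02 ± 0.27 in round and 0.06 ± 0.22 in sirloin muscle.

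DUSP1 (gene ID 539175) stood at 381, 160, 170 and 196 CPM in the round muscle of control calves 1 to 4 and at 79.7, 149, 179 and 326 CPM in treated calves 1 to 4. In sirloin muscle it was 175, 109, 150 and 172 CPM in the control calves and 128, 218, 153 and 351 CPM in the treated calves. Control calf 1 was the highest in round and treated calf 4 in sirloin muscle, and the diet groups overlapped in both. The log2 diet difference was -0.29 ± 0.41 in round and 0.48 ± 0.31 in sirloin muscle, and the difference between the muscles was -0.79 ± 0.56. The error of the latter comes from a fit with no term for the calf. Within calves, round minus sirloin log2 CPM averaged 0.51 ± 0.44 (SD) in the control calves, above 0 in 4 of 4. In the treated calves it averaged -0.28 ± 0.42 (SD), below 0 in 3 of 4. In round muscle the diet difference was -0.75 without treated calf 4 and 0.08 without control calf 1, so its sign depended on 1 calf. In sirloin muscle it ran from 0.14 without treated calf 4 to 0.65 without treated calf 1. Without both control calf 2 and treated calf 4 the sirloin value was 0.02 and the round value -0.89.

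**Figure D3:**
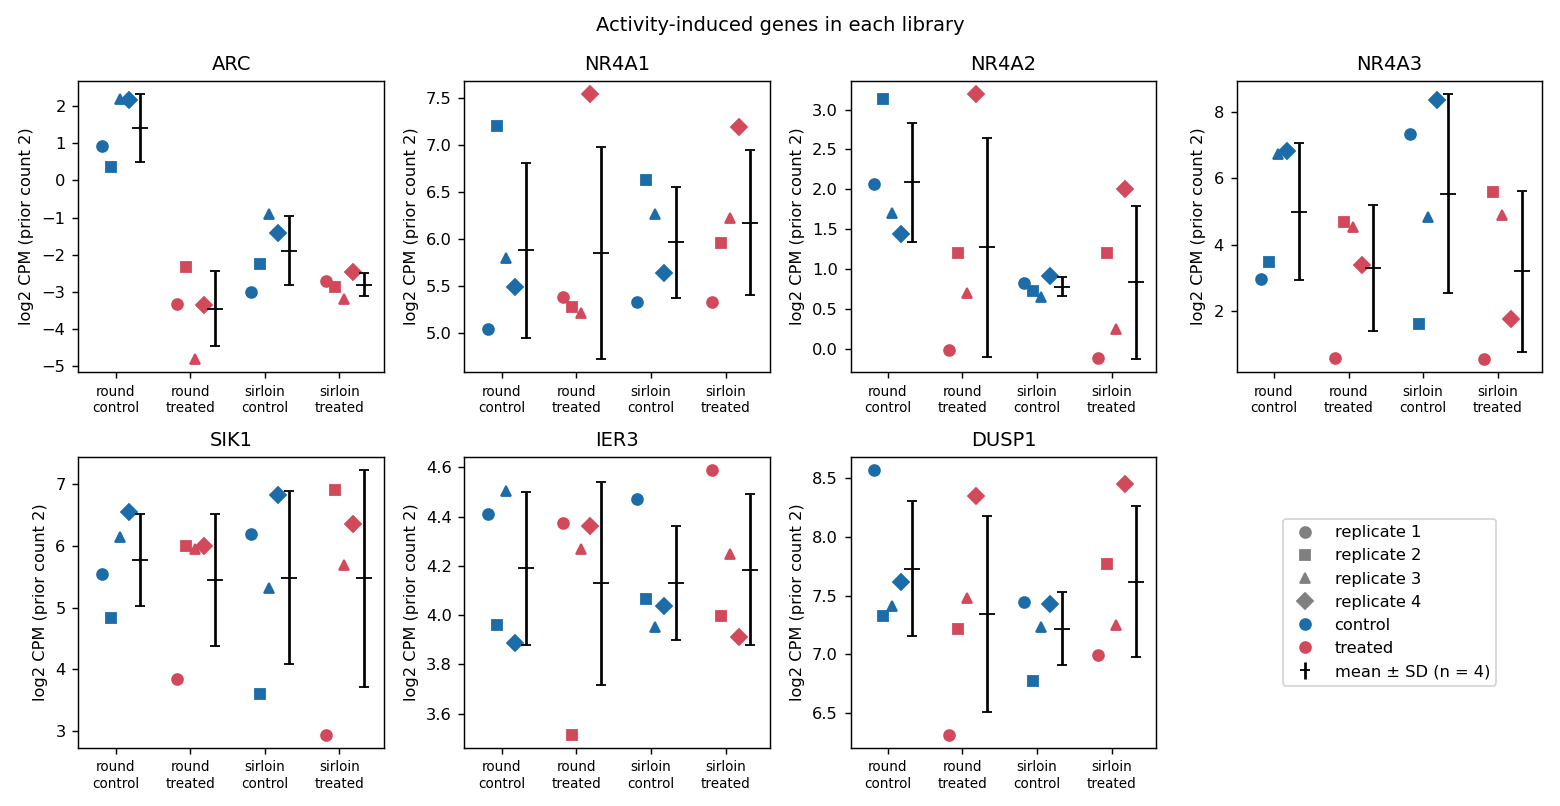
Log2 CPM (prior count 2) of each gene in each library, by muscle and diet; the marker shape gives the replicate number, the colour the diet, and the black bars the mean and SD of 4 libraries. The diets are separate for ARC in round muscle and overlap in the other panels and muscles.

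The spread between calves also differed among the genes. The SD of log2 CPM within the 4 groups was 2.39 for NR4A3, more than 99.5% of the 12315 genes with a mean of at least 1 CPM. It was 1.30 for SIK1 (percentile 96.9), 0.92 for NR4A2, 0.88 for NR4A1, 0.84 for ARC and 0.62 for DUSP1. IER3 had an SD of 0.32, below the median of 0.44 over those genes. A 1 SD step was thus 5.24-fold for NR4A3 and 1.25-fold for IER3.

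The 2 muscles of a calf were compared for each gene on deviations from the diet means, over 8 calves, with an exact two-sided permutation test within the diets (all permutations enumerated, smallest possible p 0.0017) adjusted over the 7 relations. SIK1 had Pearson r = 0.912 (p = 0.024, adjusted p = 0.082) with Spearman's rho 0.857 (permutation p = 0.019). NR4A1 had r = 0.872 (permutation p = 0.012, adjusted p = 0.082) with rho 0.714 (p = 0.097). NR4A2 had r = 0.812 (permutation p = 0.043, adjusted p = 0.082) with rho 0.619 (p = 0.21), and DUSP1 had r = 0.806 (permutation p = 0.047, adjusted p = 0.082) with rho 0.857 (p = 0.026). For ARC r was 0.631, with rho 0.667 (permutation p = 0.13 and 0.11, adjusted 0.18 and 0.19), for NR4A3 0.576, with rho 0.619 (permutation p = 0.18 and 0.16, adjusted 0.21 and 0.22), and for IER3 0.375, with rho 0.190 (permutation p = 0.42 and 0.70, adjusted 0.42 and 0.70). None passed after adjustment, and the adjusted p of rho was 0.091 for SIK1 and DUSP1, 0.19 for NR4A1 and 0.24 for NR4A2.

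The median r over 12315 genes was 0.614, so muscles of 1 calf were alike across the transcriptome and the values of the members lay on both sides of it. Without the 2 calves farthest from the median in round muscle, r was 0.316 for SIK1, 0.533 for NR4A1, 0.570 for DUSP1 and 0.126 for IER3, so these relations rested in part on those calves. It was 0.818 for NR4A2, 0.643 for ARC and 0.854 for NR4A3.

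**Figure D4:**
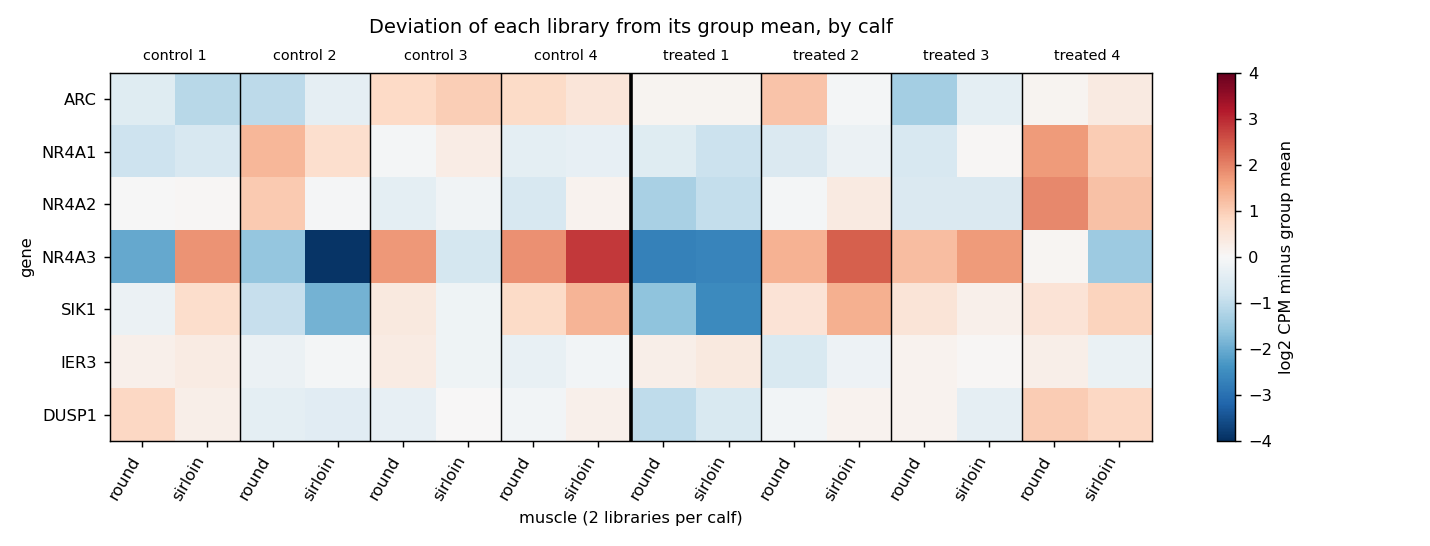
Log2 CPM of each library minus the mean of its group, for 7 genes (rows) and the round and sirloin libraries of each of the 8 calves (column pairs); red is above and blue below the group mean. NR4A3 and SIK1 are blue in both muscles of control calf 2 and treated calf 1, and NR4A1 and NR4A2 are red in both muscles of treated calf 4.

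Round and sirloin muscle were compared in all 16 libraries with a fit of 4 groups, a contrast that did not choose the genes, though the round libraries of ARC entered both. NR4A2 was higher in round than in sirloin muscle in 8 of 8 calves, by 0.0017 to 2.42 on the log2 scale. Its fitted log2 difference was 1.11 ± 0.44 with an adjusted p of 0.72 by edgeR, and with the calf as a replicate block it was 0.90 ± 0.22 with an adjusted p of 0.11. Without control calf 2 and treated calf 4 the difference was 0.57. ARC had a log2 difference of 1.40 ± 0.53 (edgeR adjusted p = 0.70). It was higher in the round library of 4 of 4 control calves, by 2.61 to 3.92, and of 1 of 4 treated calves. In the treated calves alone its fitted difference was -0.58 ± 1.04, and in the control calves 3.42 ± 0.62.

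The other 5 members had differences between -0.79 and 0.18. NR4A3 had -0.79 ± 0.85, DUSP1 0.18 ± 0.28, NR4A1 -0.01 ± 0.40 and IER3 0.01 ± 0.17, each smaller in size than its error. Of the 7 genes 0 passed the adjusted threshold by edgeR, where 0.0612% of 22877 genes passed, and 0 by DESeq2, where 0.363% passed. With the calf as a replicate block 109 genes of the whole table passed instead of 14, and again none of the 7. The unadjusted p was under 0.05 by edgeR for 2 of the 7, ARC and NR4A2, and for 1447 of all 22877 genes tested.

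Over the 16 libraries the members did not move as a single group. NR4A3 and SIK1 had Pearson r = 0.778, and 0.846 after the group means were removed, with Spearman's rho 0.735 over the libraries. NR4A2 and DUSP1 had 0.676 and 0.707, with rho 0.674. NR4A1 and NR4A2 had 0.598 and 0.790, but rho was only 0.306. NR4A3 and NR4A1 had r = -0.23, and ARC had r between -0.09 and 0.38 with each of the other members. These correlations are descriptions over libraries of 8 calves that share muscle, diet and depth.

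Across 12315 genes, those most like ARC were SERTAD1, a transcriptional coregulator (r = 0.862), ENTPD1, an ectonucleotidase (0.859), and SRPK2, a splicing factor kinase (0.849). SERTAD1 stood at 19.8 ± 2.34 CPM in the round control group, 8.43 ± 2.26 in round treated, 11.1 ± 1.73 in sirloin control and 7.60 ± 2.33 in sirloin treated (mean ± SD, n = 4). After the group means were removed its r with ARC was 0.408, against 0.746 for ENTPD1 and 0.600 for SRPK2. The genes most like NR4A1 were FEM1C (0.815), TAMALIN (0.784) and DNAJC10 (0.761), and TAMALIN is the next gene beyond a noncoding neighbour in the RefSeq order. TAMALIN reached 16.5 and 14.3 CPM in the round and sirloin libraries of treated calf 4, against at most 6.31 CPM in the other 14 libraries.

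NR4A2 was most like CAMK1D, a calcium and calmodulin dependent kinase (r = 0.919), the secreted protease gene ADAMTS1 (0.880) and the polo-like kinase gene PLK3 (0.857). NR4A3 was most like SPART (0.912), RIMOC1 (0.904) and WDR26 (0.902), each of which also had r above 0.90 after the group means were removed. WDR26 followed NR4A3 with a far smaller swing, from 59.3 to 132 CPM over the 16 libraries.

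The wider route was read from lists of known genes. The lists were chosen with earlier results of these data known, so the diet values of their genes are descriptions and not tests. Of all genes tested, 0.0185% passed by edgeR for diet in round and 0.00918% in sirloin muscle. Values below 0 were found for 10416 of 21677 genes in round and 10247 of 21776 in sirloin muscle, and these shares apply beside every list below. Of 19 tested immediate early transcription factors, 1 passed in round muscle and 13 had a value below 0 (median -0.48 against 0.02 over all genes). That gene was FOSL1, an AP-1 subunit, whose round muscle CPM were 12.4, 8.90, 22.6 and 7.27 in control calves 1 to 4 and 1.00, 0.206, 0.694 and 0.292 in treated calves 1 to 4. The groups did not overlap, as for 1.76% of all genes tested, and the log2 difference was -4.49 ± 0.57 (edgeR adjusted p = 0.037). In sirloin muscle FOSL1 was 1.205, 0.201, 0.166 and 0.570 CPM in the control and 0, 0.0800, 0.0298 and 0.0733 CPM in the treated calves, a difference of -3.48 ± 0.95 (edgeR adjusted p = 0.88). The sirloin groups did not overlap either, as for 1.68% of all genes tested, with 0 to 5 reads in each treated library. FOSL1 also passed between the muscles, at 4.06 ± 0.53 higher in round muscle (edgeR adjusted p = 0.0018). In sirloin muscle 0 of 19 passed and 11 had a value above 0 (median 0.03), and JUND had -1.74 ± 0.43 in round muscle (edgeR adjusted p = 0.86, DESeq2 adjusted p = 0.044). FOS had 2.54 ± 0.83 in sirloin muscle (edgeR adjusted p = 0.88), with treated calf 4 the highest.

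Of 15 other immediate early genes 0 passed in either muscle. In round muscle 10 had values below 0 (median -0.18) and in sirloin muscle 11 had values above 0 (median 0.26). Those with the smallest p were CSRNP1 at -1.61 ± 0.43 and BTG2 at -1.32 ± 0.41 in round muscle, and TNFAIP3, an inhibitor of NF-kappaB, at 1.95 ± 0.62 in sirloin muscle. TNFAIP3 was 1.95, 2.66, 1.34 and 11.1 CPM in the sirloin muscle of treated calves 1 to 4, against 0.865 to 1.37 CPM in the control calves, so treated calf 4, the library with the raised adipocyte markers, was far above the rest.

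Of 18 cAMP and CREB genes 0 passed by edgeR in either muscle, with 6 below 0 in round (median 0.07) and 12 below 0 in sirloin muscle (median -0.13). PPARGC1A, the coactivator of mitochondrial genes, had -2.71 ± 0.66 in round and -2.90 ± 0.72 in sirloin muscle (edgeR adjusted p = 0.86 and 0.88, DESeq2 adjusted p = 0.0074 and 0.013). CREM, a cAMP responsive factor, had -1.61 ± 0.57 in round and -1.59 ± 0.59 in sirloin muscle (edgeR adjusted p = 0.86 and 0.88). CREM was 3.42 CPM in round and 4.71 CPM in sirloin muscle of treated calf 1, the lowest of each muscle, where NR4A3 and SIK1 were also lowest.

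Of 8 class IIa histone deacetylase and MEF2 genes 0 passed, with medians of -0.17 in round and -0.20 in sirloin muscle, and MEF2C at -0.62 ± 0.32 and MEF2A at -0.31 ± 0.19 in sirloin muscle had the smallest p. Of 16 MAP kinases and other dual specificity phosphatases 0 passed (medians -0.07 and -0.10), with DUSP3 at -0.83 ± 0.22 in sirloin and DUSP16 at -0.72 ± 0.26 in round muscle. Of 13 metabolic genes known as NR4A targets in muscle 0 passed, and 10 had values below 0 in round and 10 in sirloin muscle (medians -0.16 and -0.29). Of all genes tested 10416 of 21677 had values below 0 in round and 10247 of 21776 in sirloin muscle. The 8 skeletal muscle markers had 3 of 8 below 0 in round (median 0.13) and 8 of 8 in sirloin muscle (median -0.32), and their part in the metabolic list was not tested. Among these UCP3, an uncoupling protein, had -1.205 ± 0.41, the glycolytic enzyme gene PFKM -0.56 ± 0.22 and UCP2 0.58 ± 0.25 in sirloin muscle, each with an edgeR adjusted p of 0.88.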

How the data were processed

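RNA of round and sirloin muscle was sequenced from 8 calves. The raw gene counts deposited by the authors were used without change, and the TPM values were used as deposited by the authors. The authors' tables of log2 fold changes and p-values were not used. Per the labels, libraries were poly(A) selected, reads were trimmed with Trimmomatic, aligned with STAR to ARS-UCD1.2 and counted with featureCounts; the study's methods instead name rRNA removal, HISAT2, Bowtie2 and StringTie, and which applies to the counts is not settled. Poly(A) selection and rRNA removal can weigh transcripts differently.

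Symbols came from RefSeq (ARS-UCD2.0) and matched 30762 of 34109 genes. No coordinates or sequences are given. Counts were fitted with edgeR 4.0.16 (TMM, glmQLFit, glmQLFTest, R 4.3.3) within each muscle, and over 16 libraries for the muscle contrasts, on genes with at least 1 count in the fit, with a Benjamini-Hochberg threshold of 0.05. The per-muscle fits used their own TMM factors. The main fits over 16 libraries held no term for the calf, so their standard errors ignore that both muscles came from the same calves. A standard error is the log2 difference divided by the root of F. Log2 CPM had a prior count of 2. A count of 0 allows up to 3 counts, a limit for counting error only. In counts simulated with a log2 shift of 2 of 200 genes, 77% were recovered for diet in round, 75% for diet in sirloin, 48.5% for the difference between muscles and 95% for round against sirloin muscle. The false calls numbered 18, 15, 9 and 12 in that order. The shifted genes had a mean above 1 CPM, which leaves out ARC at 0.868 CPM, and the simulated muscles shared no calf effect.

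Alternatives were DESeq2 1.42.0, limma-voom 3.58.1, RLE factors, filterByExpr, all libraries in 1 fit, a replicate block, each diet alone, and each calf left out. The replicate block was the replicate number across diets in the diet fits and the calf itself in the muscle fits. Leaving out both calves with raised marker sums was added after seeing the data. Labels number the calves 1 to 4 in each diet. Deviations from the group means correlated at 0.311 to 0.765 between the muscles of a calf (8 pairs). Calves with the same replicate number and different diets had -0.28 to 0.29 in the same muscle. Different calves compared across muscles had -0.524 to 0.456, which overlaps the range of the same calf, so the pairing rests on the labels. Named genes were the 7 members, the 3 genes most like ARC and each NR4A gene by Pearson r among genes with a mean of at least 1 CPM, and of each list those past the threshold, otherwise up to 3 with the smallest p for diet; FOS was also named after its values were seen. The members and lists were chosen with earlier results of these data known.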

Additional observations from a re-analysis of the deposited data

Results flagged for a closer look

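Single libraries lay far from the other 3 of their group for 5 of the 28 combinations of gene and group, judged by Dixon's ratio of the gap to the range at its 95% critical value. The critical value would mark about 1 in 20 groups of independent normal values. CPM need not be normal and the groups reuse the same libraries, so the number marked cannot be set against that rate. In the round treated group, treated calf 4 stood apart with 186 CPM of NR4A1, where the others had 36.9 to 41.7 CPM, and with 9.11 CPM of NR4A2, where the others had 0.956 to 2.26 CPM. Treated calf 1 stood apart with 14.2 CPM of SIK1 (others 61.8 to 64.2 CPM), and treated calf 2 with 11.4 CPM of IER3 (others 19.2 to 20.7 CPM). In the round control group, control calf 1 stood apart with 381 CPM of DUSP1 (others 160 to 196 CPM). All 5 cases lay in round muscle. The cause of these values was not tested.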

How the results depend on the processing

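The number of members called for diet in round muscle was 0 by edgeR within the muscle and 1 (ARC) by DESeq2 and by edgeR with all 16 libraries in 1 fit. The adjusted p of ARC in round muscle ran from 2.68e-10 by DESeq2 to 0.92 with the replicate block over all settings, while its log2 difference ran from -6.14 to -4.95. For diet this block matched control and treated calves by replicate number, and these numbers do not pair calves across diets. The 0.92 is thus no paired result. The number of muscle relations called was 0, and 1 (NR4A1) on log2(TPM + 0.1), and 0 to 2 when each calf was left out, with 2 (NR4A3 and SIK1) without control calf 1. For diet in sirloin muscle, the difference between the muscles and round against sirloin muscle, 0 members were called under each setting run. The replicate block changed no other call; with it the log2 diet difference of ARC was -5.33 in round muscle. Round against sirloin differences changed sign for ARC in treated calves alone (-0.58) and DUSP1 in treated calves alone (-0.20), for SIK1 with limma-voom and with the replicate block (0.13 each), for IER3 without both calves of raised marker sums (-0.039) and in treated calves alone (-0.028), and for NR4A1 with filterByExpr (0.0070) and in control calves alone (0.082). When each calf was left out they ran from -0.069 to 0.065 for IER3, below 0 without control calf 3 (-0.067) or treated calf 4, and from -0.27 to 0.098 for NR4A1, above 0 without control calf 1 (0.031), 3 (0.087) or 4 (0.017) or treated calf 2 (0.049) or 3. The cause of these changes was not tested. Counting error limits ARC in round treated (0 to 8 reads per library) and in sirloin muscle (4 to 30).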
